A study of Mus musculus with 8 samples.

Results

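miR-146a, miR-146b, miR-155 and miR-21a are the miRNAs most often linked to inflammation, and their level in the RISC was measured in the brains of mice with amyloid deposition. The miRNAs were chosen by name. Every read sequence whose miRNA name was mmu-miR-146a-5p, mmu-miR-146b-5p, mmu-miR-155-5p, mmu-miR-21a-5p or mmu-miR-21a-3p was taken, and the CPM values (reads per 1000000 reads of a library) were summed per name. This gave 5 of the 895 miRNA names in the table and 230 of its 47204 distinct sequences. Of the opposite arms, miR-146a-3p and miR-146b-3p were also in the table, and no sequence carried the name miR-155-3p.

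RISC-bound small RNAs (R-sRNAs) came from cortex and hippocampus combined, after a pull-down of Argonaute proteins with a GW182 peptide. There were 4 libraries of 5XFADtg Rubicon+/- mice (het) and 4 of 5XFADtg Rubicon-/- mice (ko). Each library was taken to be a different mouse, since 4 mice per genotype are described in one place. Another place describes fewer het mice and samples in triplicate, and the labels give replicate numbers only. Both groups carried the 5XFAD transgenes, which are driven by the neuronal Thy1 promoter, and no group without them was analysed here. The mice were females of mixed C57BL/6J/SJL background. Age is described as 6 months in one place and as 6 or 8 months in another, and the labels give neither the age of each mouse nor a batch. Rubicon is a negative regulator of autophagy and is needed for LC3-associated phagocytosis and endocytosis, so the comparison asks what the loss of its last copy changed in a brain with amyloid. Libraries held 517980 to 19915863 reads, of which 509839 to 19878054 were in the table, and ko replicates 1 and 2 were the only ones with more than 5000000. Neuronal marker miRNAs were abundant in every library (107431 to 180372 CPM summed over 5 names), as were those of microglia and leukocytes (4549 to 8654 CPM over 5 names). The tissue is bulk, so fewer cells of a type and less RNA per cell cannot be told apart.

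miR-146a and miR-146b are induced by NF-kB and dampen the same pathway by repressing the signalling adaptors IRAK1 and TRAF6. miR-155 is cut from the non-coding transcript Mir155hg (also called Bic), is induced by Toll-like receptors in microglia and macrophages, and represses SHIP1 and SOCS1, which restrain cytokine signalling. miR-21a is made from within the Vmp1 gene, is present in many cell types, and rises in glia after injury; its 5p arm is the usual guide strand and its 3p arm the passenger.

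The mature forms are shown because positions 2 to 8, in capitals, are the seed that selects targets, and because the miR-146 pair can be told apart only near the 3′ end. All 5 names matched RefSeq (GRCm38.p6).
mmu-miR-146a-5p: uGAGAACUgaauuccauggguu
mmu-miR-146b-5p: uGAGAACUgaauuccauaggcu
mmu-miR-155-5p: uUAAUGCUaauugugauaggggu
mmu-miR-21a-5p: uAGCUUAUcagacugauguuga
mmu-miR-21a-3p: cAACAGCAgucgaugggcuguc

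The miR-146 guides share their seed and differ at 2 bases, G18A and U21C, given as the base of miR-146a, the position from the 5′ end and the base of miR-146b. No read of either name was part of both references. The other seeds were each different. The Mir146 hairpin lies at chr11:43374397-43374461 on the minus strand and overlaps no other annotated gene. The Mir146b hairpin is at chr19:46342762-46342870 on the plus strand, in an intron of Mfsd13a. The hairpin of Mir155 is at chr16:84714140-84714204 on the plus strand, in an exon of the lincRNA Mir155hg. Mir21a is at chr11:86584067-86584158 on the minus strand, in an exon of the protein-coding gene Vmp1 that is annotated as UTR. All 120 sequences named miR-21a also carried a second annotation in the table, a Vmp1 mRNA, so a count by that column alone would file them as mRNA fragments.

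The 5 miRNAs together took 0.623% of all reads, and miR-21a-5p made up 88.7% of that sum. The order of the mean levels over the 8 libraries was miR-21a-5p (5532 CPM, rank 42 of all names), miR-146a-5p (472 CPM, rank 152), miR-146b-5p (209 CPM, rank 221), miR-155-5p (14.2 CPM, rank 442) and miR-21a-3p (7.67 CPM, rank 481). Neighbours in the order did not overlap over the 8 libraries except miR-155-5p (5.26 to 25.1 CPM) and miR-21a-3p (3.01 to 15.8 CPM).

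**Figure D1:**
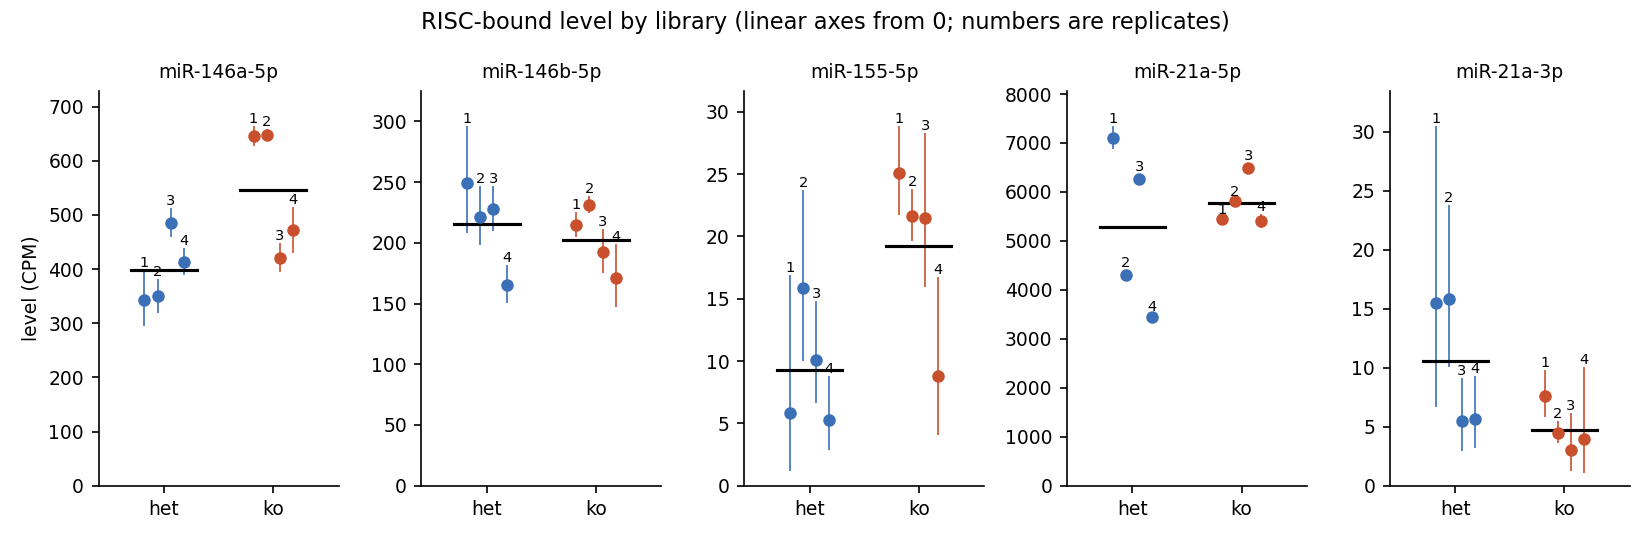
Level of each miRNA in CPM (linear axes from 0) in the 4 het and 4 ko libraries, numbered by replicate. Points have 95% Poisson intervals, which cover counting error only, and black lines are genotype means. The highest miR-146a-5p values are ko replicates 1 and 2, and het and ko values overlap for all 5 miRNAs.

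None of the 4 members whose mean reached 10 CPM passed the test between genotypes (limma on log2(CPM + 1), adjusted p under 0.05), beside 1.30% called over the 463 miRNAs tested (6 of 463, all lower in ko). Of these members, miR-155-5p reached the filter through ko, with a mean of 9.24 CPM in het and 19.3 CPM in ko. The count at an unadjusted p under 0.05 was also 0 of 4 with limma, but 2 of 4 (miR-146a-5p and miR-155-5p) after centring each library on its median, and 1 of 4 without het replicate 2, ko replicate 3 or ko replicate 4. Over all 463 miRNAs these counts were 34 with limma, 28 after centring, and 23, 34 and 38 without those libraries. edgeR and DESeq2 on the recovered reads called 0 of 4 as well, with 1 and 2 at an unadjusted p under 0.05, beside 24 and 30 of 463. Fold changes are on the log2(CPM + 1) scale and understate changes of scarce miRNAs. This centring moved all fold changes up by 0.22. At an unadjusted p under 0.05, the split over all miRNAs went from 2 higher and 32 lower in ko to 12 higher and 16 lower under centring.

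miR-146a-5p, the NF-kB feedback miRNA, stood at 344, 349, 485 and 413 CPM in het replicates 1 to 4. The ko replicates 1 to 4 had 645, 647, 420.2 and 471 CPM. The upper pair of ko libraries lay above every het library and the other two lay within the het range, so the groups overlapped. The means were 398 ± 66.2 (SD, n = 4) in het and 546 ± 118 CPM (SD, n = 4) in ko. The log2 fold change was 0.44 (SE 0.25, 95% interval -0.10 to 0.99, limma adjusted p = 0.754). Without ko replicates 1 and 2, the deepest libraries, it was 0.18 (adjusted p = 0.922).

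The level of miR-146a-5p also moved with depth. Over the 8 libraries, its log2 level had r = 0.86 with log10 of the reads (exact permutation p = 0.0068, adjusted over 5 miRNAs 0.0340). Spearman's rho was 0.76 (exact permutation p = 0.0368, adjusted 0.184), and r was 0.72 without the 2 libraries farthest in depth. The 9 miR-146a-5p sequences seen in all 8 libraries held 88.7% of its level and gave a log2 difference of 0.44 and r = 0.85 with depth. The part of depth in the genotype difference was not tested further, and no het library was as deep as ko replicates 1 and 2.

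**Figure D2:**
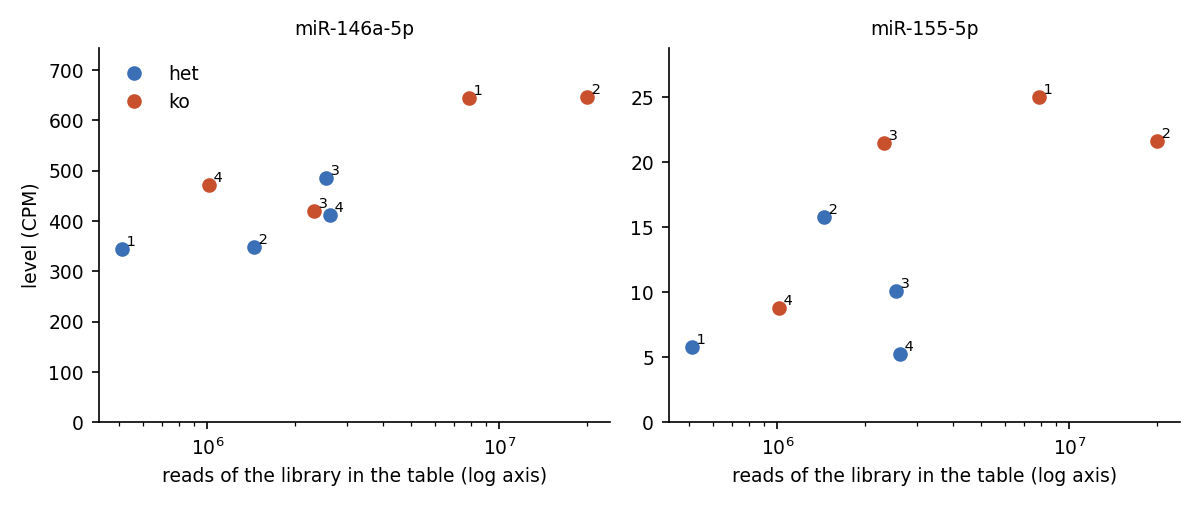
Level in CPM of miR-146a-5p (left) and miR-155-5p (right) against the reads of each library on a log axis, with het in blue, ko in red and replicate numbers beside the points. ko replicates 1 and 2, over 5000000 reads, hold the highest miR-146a-5p values (645 and 647 CPM).

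miR-146b-5p, which has the same seed, had close means in both genotypes. Its het replicates 1 to 4 had 249, 221, 228 and 165 CPM, and its ko replicates 1 to 4 had 215, 232, 192 and 171 CPM. All ko values lay within the het range, with means of 216 ± 35.8 in het and 203 ± 26.2 CPM in ko (SD, n = 4). The log2 fold change was -0.08 (SE 0.26, 95% interval -0.65 to 0.48, limma adjusted p = 0.975), and its sign was positive under centring (0.14), edgeR (0.04) and DESeq2 (0.05). Its r with depth was 0.09.

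The share of miR-146a-5p in the sum of both miR-146 guides does not depend on the scaling of a library. It was 58.0%, 61.2%, 68.0% and 71.4% in het replicates 1 to 4, and 75.0%, 73.7%, 68.6% and 73.3% in ko replicates 1 to 4. Of these, ko replicate 3 fell within the het range and the other ko libraries lay above it. The means were 64.7% ± 6.16 in het and 72.6% ± 2.80 in ko (SD, n = 4), a difference of 7.98 percentage points that did not pass (exact permutation p = 0.0571, adjusted over 6 measures 0.171). The smallest p that 4 against 4 libraries can give is 0.0286. The 95% Wilson intervals of this share were 1.31 to 10.98 percentage points wide. Without ko replicates 1 and 2 the difference was 6.29 points.

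miR-155-5p was scarce. The het replicates 1 to 4 had 5.79, 15.8, 10.1 and 5.26 CPM, from 3, 23, 26 and 14 reads. The ko replicates 1 to 4 had 25.1, 21.6, 21.5 and 8.82 CPM, from 197, 431, 50 and 9 reads. ko replicates 1 to 3 lay above every het library and ko replicate 4 lay within the het range, and het replicate 1 stood at the 3-read level taken as the floor. The means were 9.24 ± 4.89 in het and 19.3 ± 7.15 CPM in ko (SD, n = 4), a log2 fold change of 1.01 (SE 0.52, 95% interval -0.12 to 2.14, limma adjusted p = 0.693). It was 0.65 without ko replicates 1 and 2 (adjusted p = 0.83), and 0.60 with a pseudocount of 10. Its r with depth was 0.66 (exact permutation p = 0.0737, adjusted 0.184; rho 0.55, exact permutation p = 0.171, adjusted 0.427; r = 0.44 without the 2 libraries farthest in depth). The 1 miR-155-5p sequence seen in all 8 libraries, which held 30.7% of its level, gave a log2 difference of 1.38 and r = 0.32 with depth.

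miR-21a-5p, by far the most abundant of the group, had 7105, 4299.9, 6273 and 3445 CPM in het replicates 1 to 4. In ko replicates 1 to 4 it had 5439, 5814, 6483 and 5397 CPM. The highest and the lowest of the 8 libraries were both het, and all ko values lay between them. The means were 5281 ± 1697 in het and 5783 ± 503 CPM in ko (SD, n = 4), with a log2 fold change of 0.19 (SE 0.26, 95% interval -0.39 to 0.76, limma adjusted p = 0.975). It was 0.00054 without het replicate 4, the lowest library, and 0.35 without het replicate 1, the highest. Because this miRNA dominates, the sum of the 5 miRNAs followed it, with 5914 ± 1732 in het and 6556 ± 465 CPM in ko (exact permutation p = 0.486, adjusted 0.729). The difference of 642 CPM was 15.1 CPM without het replicate 4 and 1243 CPM without het replicate 1.

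Its passenger arm, miR-21a-3p, had 15.4, 15.8, 5.44 and 5.63 CPM in het replicates 1 to 4 from 8, 23, 14 and 15 reads. The ko replicates 1 to 4 had 7.63, 4.47, 3.01 and 3.92 CPM from 60, 89, 7 and 4 reads. Only ko replicate 1 reached the het range, and it lay above het replicates 3 and 4. The means were 10.6 ± 5.83 in het and 4.76 ± 2.01 CPM in ko (SD, n = 4). As its mean was under 10 CPM, it was read from the fit of all 698 miRNAs whose mean reached 1 CPM, where 0.860% were called. The log2 fold change was -0.92 (SE 0.55, 95% interval -2.09 to 0.26, limma adjusted p = 0.820), and -0.44 with a pseudocount of 10.

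**Figure D3:**
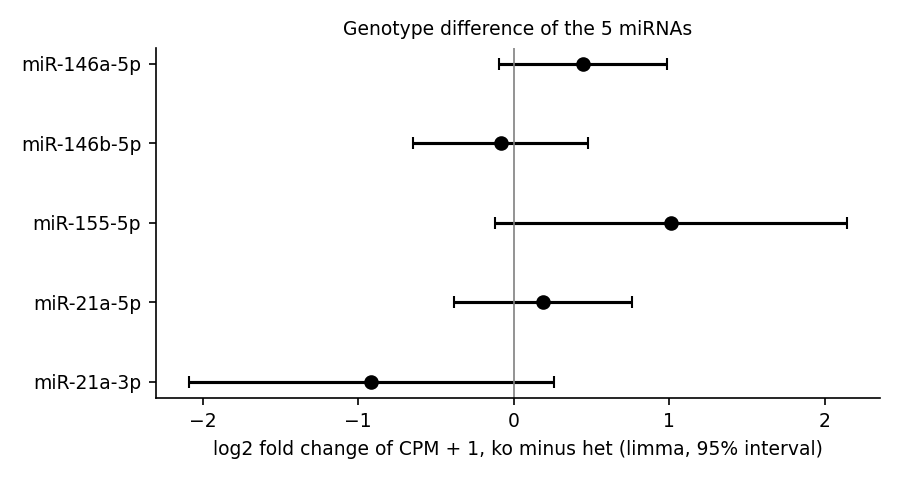
Log2 fold change of CPM + 1 (ko minus het) of the 5 miRNAs from limma, with 95% intervals as bars and 0 as the grey line. Every interval holds 0, from miR-155-5p at 1.01 to miR-21a-3p at -0.92.

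The ratio of the 2 arms of miR-21a, the balance of guide over passenger strand in the RISC, was 460, 272, 1154 and 612 in het replicates 1 to 4. It was 712, 1302, 2155 and 1377 in ko replicates 1 to 4. The ko libraries tended to the upper end, although het replicate 3 lay above ko replicate 1. On the log2 scale the balance was 9.09 ± 0.869 in het and 10.3 ± 0.656 in ko (SD, n = 4), a difference of 1.24 (exact permutation p = 0.0571, adjusted 0.171). Without 1 miR-21a-3p sequence with a shifted 5′ end, which held 6 of the 8 reads in het replicate 1 and 2 of the 89 in ko replicate 2, the difference was 0.75 (adjusted p 0.729 in the same exact permutation test). With all sequences but without ko replicates 1 and 2 it was 1.66. With only sequences of at least 1 CPM on average it was 2.73. The miR-21a-3p sequences kept, the shifted one among them, reached that level through het. Their means were 1.91 to 2.90 CPM in het and 0.025 to 0.936 CPM in ko. This filter thus favours passenger reads of het, and no test is read from 2.73. The ratio rests on 4 to 89 reads of the passenger arm per library.

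**Figure D4:**
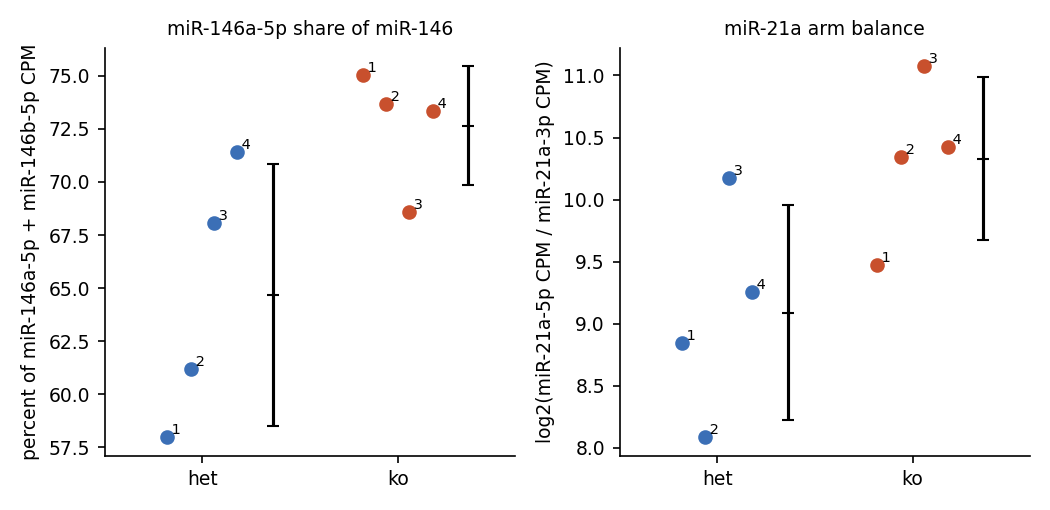
Share of miR-146a-5p in the CPM of both miR-146 guides (left, percent) and log2 ratio of miR-21a-5p to miR-21a-3p CPM (right) in each library, numbered by replicate, with the mean and SD of each genotype as bars; neither axis starts at 0. The means are 64.7% and 72.6% on the left and 9.09 and 10.3 on the right, and the genotypes overlap in both.

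The opposite arms of the other hairpins were near the limit of detection. miR-146a-3p had 8 reads, all in ko replicate 2 (0.402 CPM). A count of 0 in the other libraries has an upper 95% Poisson limit of 0.469 (ko replicate 1) to 7.12 CPM (het replicate 1). miR-146b-3p had 62 reads in 3 sequences, with means of 1.79 ± 2.86 in het and 1.80 ± 1.49 CPM in ko (SD, n = 4).

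The reads of the 2 miR-146 guides differed in their 3′ ends. The most abundant reads are shown because they carry this difference, with bases beyond the RefSeq mature form in capitals.
miR-146a-5p, the reference form: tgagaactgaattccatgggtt
miR-146a-5p, the form with an added T: tgagaactgaattccatgggttT
miR-146a-5p, the form shorter by 1 base: tgagaactgaattccatgggt
miR-146b-5p, the form longer by 2 bases: tgagaactgaattccataggctGT
miR-146b-5p, the reference form: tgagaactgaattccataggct
miR-146b-5p, the form longer by 1 base: tgagaactgaattccataggctG

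In miR-146a-5p the reference form held 40.7% of all CPM and the form with an added T, which the Mir146 hairpin does not encode at that place, held 21.4%. The most abundant read of miR-146b-5p was not the reference form (26.0%) but the form with 2 more bases of its hairpin (30.03%), followed by that with 1 more (19.8%). Reads with a 3′ tail that the hairpin does not encode made up 34.2% of miR-146a-5p (29.2% to 40.4% by library) and 8.63% of miR-146b-5p (3.88% to 12.1%). The tailed share was higher in miR-146a-5p in 8 of 8 libraries, by 25.6 ± 6.03 percentage points (SD; exact sign-flip permutation p = 0.0078, the smallest that 8 libraries can give). Tails of T alone made up 24.7% of miR-146a-5p and 1.66% of miR-146b-5p.

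The reverse held for reads that the hairpin does encode and that run past the reference. These made up 12.5% of miR-146a-5p (6.89% to 18.5%) and 49.8% of miR-146b-5p (42.5% to 61.1%). The share was higher in miR-146b-5p in 8 of 8 libraries, by 37.3 ± 6.05 percentage points (SD; exact sign-flip permutation p = 0.0078). Both differences were tested after the isoforms had been seen. In a single read, an added base and a sequencing error cannot be told apart. An added base that equals the next base of the hairpin was counted as encoded. The hairpins go on with AT after miR-146a-5p and with GT after miR-146b-5p, so this limit differs between the guides. Over all other miRNAs with a reference form (749 names), reads longer than the reference, tailed or not, made up 18.4% ± 0.564 in het and 18.5% ± 1.31 in ko (SD, n = 4). The same share was 47.9% ± 7.85 and 42.4% ± 6.86 for miR-146a-5p, and 58.7% ± 7.76 and 55.2% ± 6.52 for miR-146b-5p.

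**Figure D5:**
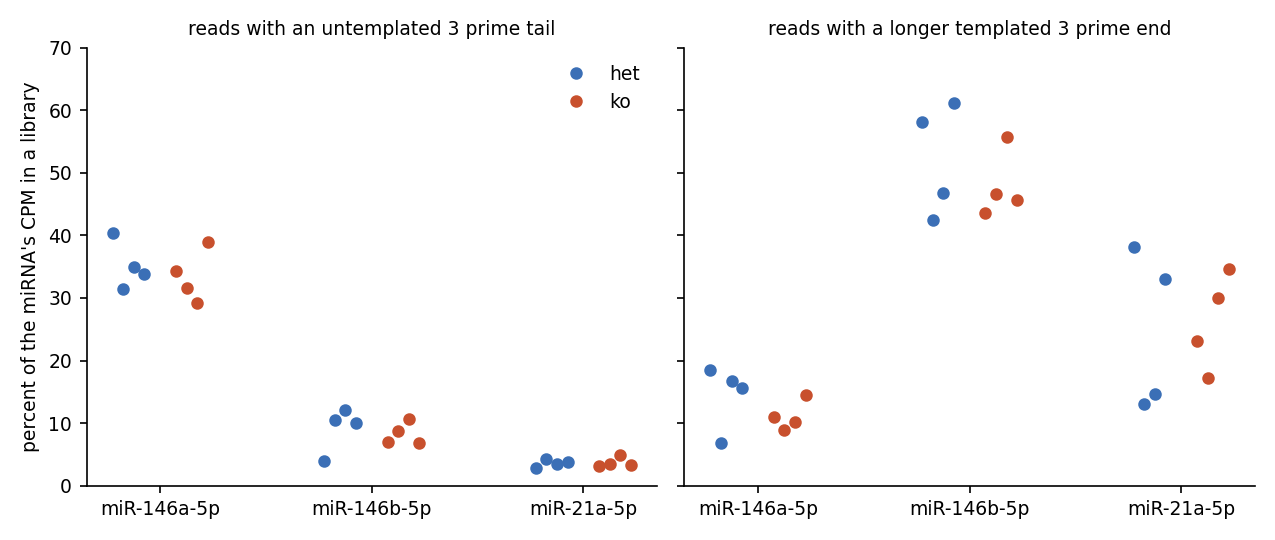
Percent of the CPM of miR-146a-5p, miR-146b-5p and miR-21a-5p in reads with a 3′ tail that the hairpin does not encode (left) and in reads with a longer 3′ end that it does (right), 1 point per library, het in blue and ko in red. Tails are most frequent in miR-146a-5p (29.2% to 40.4%) and longer encoded ends in miR-146b-5p (42.5% to 61.1%), in both genotypes.

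miR-21a-5p was read mainly in 3 forms, which are shown because their shares differed most between libraries.
miR-21a-5p, the reference form: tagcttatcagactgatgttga
miR-21a-5p, the form longer by 1 base: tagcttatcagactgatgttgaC
miR-21a-5p, the form shorter by 1 base: tagcttatcagactgatgttg

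The reference form held 44.0% of its CPM, the longer form, whose last base is that of the hairpin, held 25.0% and the shorter form 22.8%. Tailed reads made up 3.59%. The longer form ranged from 11.9% to 37.1% between libraries and the shorter form from 14.98% to 37.3%. All reads longer than the reference made up 41.4%, 16.5%, 17.7% and 36.6% in het replicates 1 to 4. They made up 26.0%, 20.5%, 35.2% and 37.7% in ko replicates 1 to 4. Libraries of both genotypes were found at either end. The means were 28.0% ± 12.8 in het and 29.9% ± 8.03 in ko (SD, n = 4; exact permutation p = 0.771, adjusted 0.83). The difference of 1.83 percentage points was -2.02 to 6.28 when 1 library was left out and 8.45 without ko replicates 1 and 2. Its mean read length was 21.98 ± 0.209 and 22.06 ± 0.142 nt (exact permutation p = 0.486, adjusted 0.729).

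For miR-155-5p the reference form held 30.7% of 14.2 CPM over 13 sequences, all with the main seed. The miR-21a-3p sequence left out above lacked the first 2 bases of the 5′ end, which gives it another seed.
miR-21a-3p, the reference form: caacagcagtcgatgggctgtc
miR-21a-3p, the 5′ shifted form: acagcagtcgatgggctgtcT
This shifted form stood at 11.6 CPM in het replicate 1 and at 0 or 0.1 CPM in the other libraries, while the reference form had a mean of 1.42 CPM.

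The 6mer seed (positions 2 to 7) decides the viability score given to a read, which is the percent viability, averaged over 3 mouse lines, after transfection of an siRNA with that seed, so that low values mark toxic seeds. The score was 80.2 for miR-21a-5p, 51.6 for both miR-146 guides, 51.0 for miR-21a-3p and 42.9 for miR-155-5p. Of all CPM in the table, 91.2% had a lower score than miR-21a-5p, 52.6% a lower one than miR-146, 47.8% than miR-21a-3p and 13.8% than miR-155-5p. The most abundant miRNA of the group thus had the highest score and the scarce miR-155-5p the lowest.

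How much of a seed's level came from its miRNA differed widely. Reads with the miR-21a-5p seed AGCUUA summed to 5480 CPM, 98.9% of it from miR-21a-5p. Those with the miR-146 seed GAGAAC summed to 669 CPM, 68.9% from miR-146a-5p and 30.6% from miR-146b-5p. For the miR-155-5p seed UAAUGC the sum was 20.6 CPM, 69.2% from miR-155-5p and 25.6% from sequences with no miRNA name. Only 13.2% of the 47.0 CPM with the miR-21a-3p seed AACAGC came from miR-21a-3p, and 73.9% came from sequences with no miRNA name. Other annotations of these sequences were not examined.

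Reads with a shifted 5′ end and hence another seed were rare in the guides. They made up 2.31% of miR-146a-5p, 2.06% of miR-146b-5p and 2.05% of miR-21a-5p. The most frequent shifted seed of both miR-146 guides was AGAACU, with a score of 68.2 against 51.6 for the main seed. In miR-21a-5p it was UAGCUU, with a score of 72.5 against 80.2. The shifted share over the 4 guides, most of whose reads are miR-21a-5p, was 1.93% ± 0.777 in het and 2.08% ± 0.207 in ko (SD, n = 4, exact permutation p = 0.83, adjusted 0.83). In miR-146b-5p alone, reads with the main seed made up 99.4% ± 0.400 in het and 96.1% ± 2.08 in ko (SD, n = 4). This difference was not tested. The main seed made up 97.8% (het) and 97.6% (ko) of miR-146a-5p and 98.0% of miR-21a-5p in both genotypes.

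Co-variation of the 5 miRNAs was examined over the 8 libraries, and none of their 10 pairs passed after adjustment. The largest r was between miR-146b-5p and miR-21a-5p (r = 0.60, exact permutation p = 0.111, adjusted 0.484; rho = 0.64, exact permutation p = 0.0962, adjusted 0.481). It was 0.16 without the 2 libraries farthest from the median of miR-146b-5p and 0.71 after the genotype means were removed. For miR-146a-5p and miR-155-5p, both NF-kB targets, r was 0.58 (exact permutation p = 0.141, adjusted 0.484; rho = 0.67, exact permutation p = 0.0831, adjusted 0.481). It was 0.04 without the 2 libraries farthest from the median of miR-146a-5p, so the relation rested on them, and 0.24 within genotypes. Centring each library on its median raised the r of these pairs to 0.81 for miR-146b-5p with miR-21a-5p (adjusted exact permutation p = 0.0729) and 0.69 for miR-146a-5p with miR-155-5p (0.226). The miR-146 pair had r = 0.04 (exact permutation p = 0.926, adjusted 0.926), which was 0.68 under centring (adjusted 0.226) and -0.47 without ko replicates 1 and 2, and the arms of miR-21a had r = -0.08 (exact permutation p = 0.859, adjusted 0.926). All libraries are scaled to the same total and differ in depth, which these relations share.

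The miRNAs whose level was most like each of the 5, by r over the 8 libraries among all tested, are given as a description. For miR-146a-5p they were miR-211-5p (r = 0.73), miR-379-3p (0.66) and miR-128-3p (0.65). miR-146b-5p was most like miR-382-3p (0.93), miR-126a-5p (0.91) and miR-140-5p (0.90). miR-155-5p was most like let-7a-5p (0.90), miR-434-3p (0.89) and let-7c-5p (0.76). For miR-21a-5p they were miR-128-1-5p (0.85), miR-219a-2-3p (0.73) and miR-9-3p (0.71). miR-21a-3p was most like miR-338-3p (0.86), miR-214-3p (0.86) and miR-193a-3p (0.80). No miRNA of the group was among the 3 most like another.

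Other miRNAs that are induced by or act on NF-kB or Toll-like receptor signalling were read from the same fit. Of 20 listed, 19 were in the table and 18 were tested, and none was called in either direction by limma or had an unadjusted p under 0.05. Over all 463 miRNAs tested, 6 were called (1.30%) and 34 had such a p. A count of 0 called among 18 is near the share over all miRNAs. Their log2 fold changes had a median of -0.08, beside -0.09 over all 463 miRNAs tested, and 7 of 18 were positive. They ran from -0.70 for miR-29b-3p, with 16699 ± 3002 in het and 11391 ± 6787 CPM in ko, to 0.41 for the brain miRNA miR-9-5p, with 49088 ± 13044 and 65005 ± 16975 CPM (SD, n = 4).

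Of the 5 microglia and leukocyte markers none was called, beside 1.30% over all 463 miRNAs tested. Their summed level was 4626 to 6298 CPM in het and 4549 to 8654 CPM in ko, so the groups overlapped, and all 5 were detected. Their log2 fold changes were -0.52 for miR-142a-3p, -0.25 for miR-223-3p, -0.04 for miR-142a-5p, 0.01 for miR-150-5p and 0.29 for miR-342-3p, and their sum averaged 5459 (het) and 5968 CPM (ko). Of the markers of other cell types, those past the threshold were epithelial, with 3 of 6 tested lower in ko and summed levels of 2249 to 8555 CPM in het and 226 to 1794 CPM in ko. Markers of red cells (2222 and 1270 CPM in het and ko, means of the sum) and oligodendrocytes (11759.6 and 7818 CPM) had lower means in ko with none called. So did those of smooth muscle (5408 and 4718 CPM) and endothelium (8530 and 8068 CPM). The neuronal sum was higher in ko (136822 and 144804 CPM) with none called, and its 5 log2 fold changes ran from -0.61 to 0.33. Of the oligodendrocyte markers, miR-219a-5p (4402 and 2088 CPM) and miR-338-3p (6129 and 4369 CPM) carried this, while miR-219a-2-3p had 1228 CPM in het and 1361 CPM in ko. The choroid plexus markers summed to a mean of 3397 CPM in het and 3145 CPM in ko, nearly all of it miR-204-5p (3391 and 3116 CPM). The scarce choroid plexus marker miR-211-5p, the miRNA most like miR-146a-5p, had 5.52 ± 6.47 in het, with 0 in het replicates 1 and 2, and 29.8 ± 18.9 CPM in ko (SD, n = 4; limma adjusted p = 0.266), and reached the 10 CPM filter through ko. Their part in the values of the 5 miRNAs was not tested.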

How the data were processed

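Argonaute-bound small RNAs of 8 mouse brain samples, 4 het and 4 ko, were sequenced, and the titles of the samples gave the groups and replicate numbers. The authors trimmed the reads (Trim Galore, per the labels), compiled them into 1 table of distinct sequences, removed rare and artificial sequences, matched the rest by BLAST to small RNA lists and scaled each library to 1000000 reads, so the deposited values are CPM. For each seed the deposited table gives a viability score, averaged by the authors over 3 mouse cell lines from an earlier screen. The table's mRNA annotations name the mouse build mm9, and versions and the build used for the miRNA names are not given in the sources used here. No sequence had fewer than 8 reads in all. This favours sequences seen in deep libraries. Each CPM value is relative to the rest of its library.

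CPM was summed per miRNA name. Names whose mean reached 10 CPM entered limma 3.58.1 (R 4.3.3; trend, robust) on log2(CPM + 1), with no covariate and Benjamini-Hochberg adjustment over all tested. miR-21a-3p did not pass this filter and was read from the fit at 1 CPM, a choice made after seeing the data. Values were whole multiples of 1 read (100% within 0.1 of a read), so reads and library depth (517980 to 19915863, of which 509839 to 19878054 in the table) were recovered and edgeR 4.0.16 and DESeq2 1.42.0 were run on them as alternatives. Levels of 3 reads were taken as the floor. Intervals and floors cover counting error only, and no use of molecular identifiers is described in the sources used here. Per-library measures were compared by two-sided exact permutation tests over all 70 splits. Correlations used all pairings of the 8 libraries. Python 3.11.15, numpy 2.4.6, scipy 1.17.1, pandas 2.3.3 and matplotlib 3.10.9 were used, and scripts were tested on simulated data. Reads were aligned to RefSeq mature miRNAs and hairpins (GRCm38.p6), and a tail was the part of a read past its longest match to the hairpin. Gene context came from GENCODE M21.

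The miRNAs and the lists were chosen with earlier results of these data known. Named were the 5 miRNAs, their opposite arms, for each the 3 miRNAs with the highest r, and its 3 most abundant reads. The inflammation list and the cell type markers were named by counts, and miR-29b-3p and miR-9-5p, as the extremes, and the oligodendrocyte and choroid plexus markers were chosen from them after their values were seen. Other alternatives were pseudocounts of 0.1 and 10, filters at 1 and 100 CPM and none, a fit with the replicate number as a block, centring of each library on its median, leaving out each library, and leaving out both libraries over 5000000 reads. The tests of 3′ ends, the level over sequences seen in all libraries and the arm balance without 1 sequence were added after seeing the data.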

Additional observations from a re-analysis of the deposited data

Results flagged for a closer look

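Reads that matched the 4 hairpins but carried no mature miRNA name lie outside the values above, and those of 3 hairpins were present. Such reads of the Mir21a hairpin had a mean of 14.2 CPM over the 8 libraries (12 sequences and 475 reads, 15.1 CPM in het and 13.2 CPM in ko), more than the 7.67 CPM of miR-21a-3p itself. For the Mir146 hairpin the mean was 1.29 CPM (4 sequences and 70 reads), and for Mir146b it was 0.605 CPM (1 sequence and 14 reads). The Mir155 hairpin had none. Of 22 groups of 4 libraries looked at, none had a library set apart from the other 3 by Dixon's test at 95%, where chance gives about 1.1.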

How the results depend on the processing

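Over 25 results and 245 alternatives, 232 kept their direction and their side of the threshold, and 13 changed direction without passing it. In all fits, 0 members passed. The log2 fold change of miR-146b-5p was 0.14 under centring, 0.036 with edgeR and 0.052 with DESeq2. Leaving out 1 library moved the genotype difference in miR-21a-5p reads longer than the reference between -2.02 and 6.28 percentage points (8.45 without both libraries over 5000000 reads), and that in the 5′ shifted share between -0.0194 and 0.527 points; with reads of at least 1 CPM the latter was -0.0301 points. The r of the miR-146 guides was -0.47 without both libraries over 5000000 reads and 0.68 under centring. After genotype means were removed, r was -0.10 for miR-146a-5p with miR-21a-5p, 0.33 for miR-155-5p with miR-21a-3p and 0.14 for the arms of miR-21a. The cause of these changes was not tested. Log2 fold changes over all alternatives ran from 0.18 to 0.67 for miR-146a-5p (adjusted p 0.644 to 0.988), 0.60 to 1.33 for miR-155-5p (0.462 to 0.988), 0.00054 to 0.41 for miR-21a-5p (0.802 to 0.998, the lowest without het replicate 4), -0.23 to 0.14 for miR-146b-5p (0.908 to 0.994) and -1.23 to -0.44 for miR-21a-3p (0.716 to 0.995). The filter at 100 CPM left out miR-155-5p and miR-21a-3p, so it gave no value for them.

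With the replicate number as a block (the replicate block), the calls over all miRNAs rose from 6 to 10 and members called stayed at 0. Same-numbered libraries correlated at 0.04, 0.29, -0.18 and 0.25. Libraries of different numbers were not compared, so these values cannot show whether the numbers pair the mice, and the labels do not say. Leaving out 1 library gave 4 to 9 calls over all miRNAs, edgeR 4 and DESeq2 9. For miR-155-5p and miR-21a-3p, depth limits what can be shown, since some libraries held 3 to 9 reads of them.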
